A study of Mus musculus with 24 samples.

Results

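Mammary tumours with high expression of Car9, a marker of low oxygen, were compared with tumours of low Car9 expression in a series of 24 bulk RNA sequencing libraries. The tiers came from Car9 itself: its reads were divided by each library's total and scaled to CPM, a read count brought to 1 common library size, and the 4 highest and 4 lowest libraries were taken separately among the 12 libraries labelled KO and the 12 labelled WT. The high tier holds 8 libraries, the low tier 8, and the other 8 libraries of the series form a middle tier that the comparison leaves out. The samples are mammary tumours of the MMTV-PyMT model, in which a viral promoter active in mammary epithelium drives the polyoma middle T oncogene, and every tumour in either tier carries it. The labels give genotype SHP KO or SHP WT, SHP being the protein of Nr0b2, and each tier holds 4 tumours of either label. Tumours were taken at a volume of 2000 mm3, frozen and homogenised whole, and no animal's age or treatment is given. Nr0b2 reads went against the labels: the 12 libraries labelled KO held 3 to 71 reads each, while 11 of the 12 labelled WT held 0 and WT 24 held 1. Every mention of KO or WT therefore means the label. It is not stated that each tumour came from a separate animal, so a p-value here speaks of the spread among these tumours only.

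Cells sense oxygen through prolyl hydroxylases that mark the HIF alpha subunits for destruction by the VHL ubiquitin ligase. When oxygen is scarce the alpha subunits persist, pair with ARNT and bind a short DNA motif beside genes for glucose uptake, glycolysis, acid export, vessel growth and collagen processing. Car9 encodes carbonic anhydrase IX, a cell-surface enzyme that handles the acid made by glycolytic cells, and is a widely used mark of hypoxic regions in solid tumours, including those of the breast. The tiers are not a treatment. A test between them asks which other genes went with Car9 across tumours, and no oxygen measurement belongs to these samples.

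The core letters of the HIF motif were searched in promoter windows running from 250 bases before to 50 bases after each gene's start (RefSeq, GRCm38.p6). The letters were ACGTG and GCGTG with their reverse complements CACGT and CACGC, either strand counted, and overlapping matches (CACGTG holds both CACGT and ACGTG) were allowed. The windows below are those of the tier gene, of the vasodilator peptide gene Adm, and of 4 called genes from different steps of the response. The matched letters are in capitals.

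Car9 (chr4:43506776-43507075, plus strand): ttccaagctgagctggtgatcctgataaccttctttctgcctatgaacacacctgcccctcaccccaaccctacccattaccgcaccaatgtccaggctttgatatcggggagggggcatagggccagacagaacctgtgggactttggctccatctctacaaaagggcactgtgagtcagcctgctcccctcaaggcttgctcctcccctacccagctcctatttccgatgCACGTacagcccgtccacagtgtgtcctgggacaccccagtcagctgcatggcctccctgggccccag
Adm (chr7:110627407-110627706, plus strand): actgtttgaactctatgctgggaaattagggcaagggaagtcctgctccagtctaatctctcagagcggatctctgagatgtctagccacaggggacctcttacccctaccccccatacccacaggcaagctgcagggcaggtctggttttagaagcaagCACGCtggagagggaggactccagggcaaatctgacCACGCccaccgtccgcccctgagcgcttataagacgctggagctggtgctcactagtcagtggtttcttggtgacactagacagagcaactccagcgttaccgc
Egln3 (chr12:54203825-54204124, minus strand): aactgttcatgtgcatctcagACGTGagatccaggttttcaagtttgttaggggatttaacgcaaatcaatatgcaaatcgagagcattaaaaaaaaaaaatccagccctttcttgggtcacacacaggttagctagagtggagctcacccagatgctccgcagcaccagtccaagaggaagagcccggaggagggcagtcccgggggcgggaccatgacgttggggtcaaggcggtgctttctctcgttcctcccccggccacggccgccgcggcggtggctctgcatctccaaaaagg
Slc16a3 (chr11:120948817-120949116, plus strand): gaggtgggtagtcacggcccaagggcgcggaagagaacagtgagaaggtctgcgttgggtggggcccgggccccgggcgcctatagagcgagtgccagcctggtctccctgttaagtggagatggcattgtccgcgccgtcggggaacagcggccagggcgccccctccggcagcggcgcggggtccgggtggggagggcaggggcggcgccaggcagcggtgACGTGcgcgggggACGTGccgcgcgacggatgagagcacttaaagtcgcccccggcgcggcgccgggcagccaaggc
Pgk1 (chrX:106186850-106187149, plus strand): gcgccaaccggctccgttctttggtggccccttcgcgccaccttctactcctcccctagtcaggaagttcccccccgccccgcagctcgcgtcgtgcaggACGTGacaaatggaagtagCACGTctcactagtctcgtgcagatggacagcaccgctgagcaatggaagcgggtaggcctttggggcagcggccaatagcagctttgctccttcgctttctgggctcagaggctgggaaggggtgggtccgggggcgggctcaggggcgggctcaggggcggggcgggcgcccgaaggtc
Ero1a (chr14:45318523-45318822, minus strand): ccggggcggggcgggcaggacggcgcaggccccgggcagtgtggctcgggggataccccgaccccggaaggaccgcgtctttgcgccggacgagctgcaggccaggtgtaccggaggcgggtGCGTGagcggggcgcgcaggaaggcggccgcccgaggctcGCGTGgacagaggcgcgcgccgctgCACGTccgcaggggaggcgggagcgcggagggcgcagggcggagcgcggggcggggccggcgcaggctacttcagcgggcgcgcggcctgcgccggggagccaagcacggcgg

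Car9 holds a match 18 bases before its start, Egln3 a match 229 bases before it, and Slc16a3 a pair at 27 and 14 bases before it. Shares were counted over genes with a window, and a gene counted if any of its windows held at least 1 match. This held for 18 of 20 hypoxia-response genes called higher in the high tier (90%) and 41 of 53 tested members not called (77.4%). For tested members together it held for 59 of 73 (80.8%). Over all tested genes with a window the letters were found for 8078 of 12741 (63.4%). They were found for 250 of 347 genes called higher (72.0%) and for 154 of 396 genes called lower (38.9%). The base composition of the windows was not counted. A match describes letters in a window, and no binding was measured here.

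Car9 (chromosome 4, 43507026 to 43513729, plus strand, GRCm39) defined the tiers, so its values are a description. In the high tier it had 70.3, 41.2, 38.4 and 35.8 CPM in KO 12, KO 6, KO 5 and KO 2, and 123.9, 114.9, 106.6 and 57.6 CPM in WT 21, WT 22, WT 23 and WT 18. In the low tier it had 27.0, 23.8, 13.3 and 13.1 CPM in KO 10, KO 3, KO 11 and KO 4, and 30.9, 29.4, 20.03 and 10.6 CPM in WT 16, WT 17, WT 20 and WT 13. The edges of the tiers were close in the libraries labelled KO: KO 2 at 35.8 CPM was high while KO 1 at 34.8 was middle, and KO 10 at 27.0 was low while KO 8 at 27.3 was middle. Among libraries labelled WT the upper edge lay between WT 18 at 57.6 and WT 15 at 52.0 CPM, and the lower edge between WT 16 at 30.9 and WT 14 at 33.2.

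Adm (chromosome 7, 110226864 to 110229027, plus strand, GRCm39), named together with Car9 as a mark of the high tumours, had 9.85, 11.52, 19.4 and 71.5 CPM in high KO 2, 5, 6 and 12 and 13.9, 26.0, 9.18 and 37.5 CPM in high WT 18, 21, 22 and 23. It had 3.30, 3.31, 3.01 and 4.30 CPM in low KO 3, 4, 10 and 11 and 5.14, 2.56, 6.88 and 2.93 CPM in low WT 13, 16, 17 and 20. Its tiers did not overlap, which held for 80 of the 16813 tested genes (0.476%). Ranking the libraries by Adm in place of Car9 would have kept 7 of 8 libraries in the high tier and 6 of 8 in the low tier, and Egln3 would have kept 7 and 7. Vegfa would have kept 6 and 6 with 1 library in the opposite tier, and Slc2a1 would have kept 6 and 3, also with 1 library in the opposite tier. Of the 16 libraries, ranking by H2-Ab1, a class II gene, would have put 13 in the opposite tier, by Dcn of fibroblasts 12, and by Cd3e of T cells or Adipoq of fat cells 11 each. The proliferation gene Mki67 would have kept 4 and 5, with 2 in the opposite tier. The keratin gene Krt8 would have kept 3 and 5, with 3 in the opposite tier. Egln3, H2-Ab1, Dcn and Adipoq were named from this same comparison, so their rankings restate its result. A random ranking would also keep some libraries and put others in the opposite tier, and that share was not counted.

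**Figure D1:**
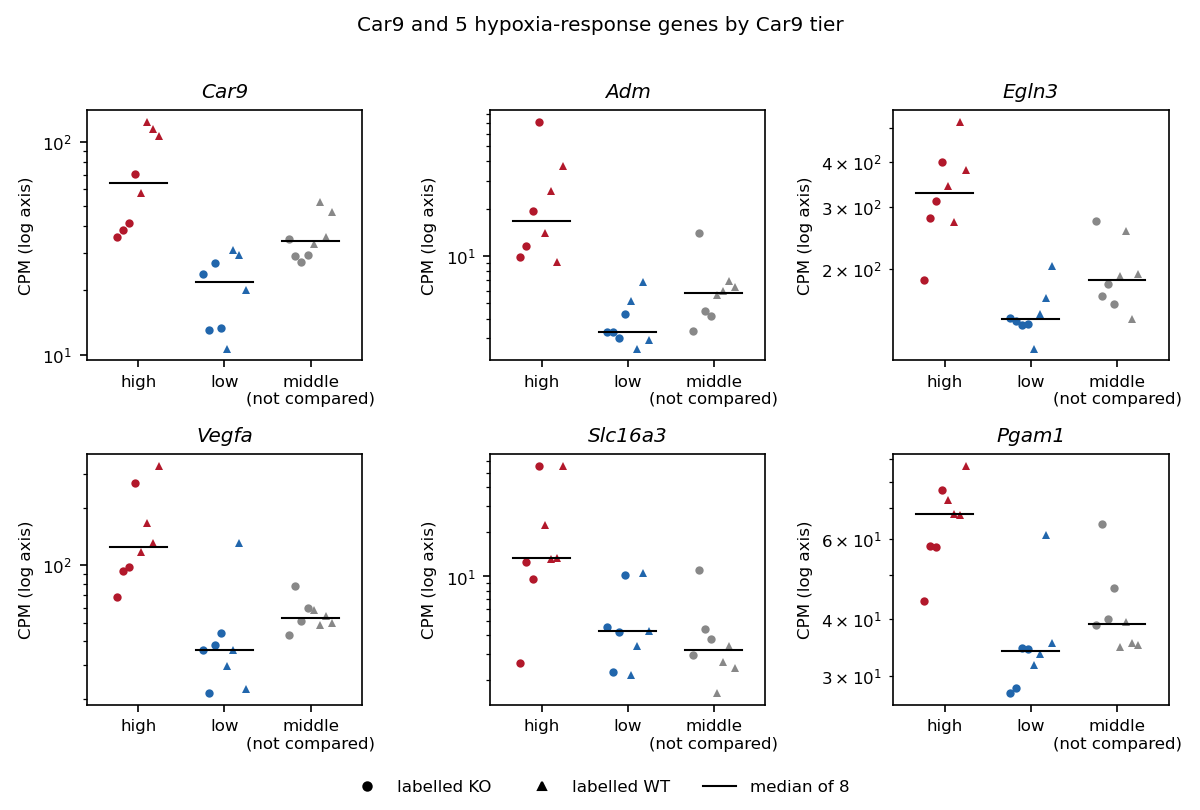
Each point is 1 library (circles labelled KO, triangles labelled WT), in CPM on a log axis, with the median of 8 as a line, for the high, low and middle tiers. Car9, which set the tiers, and Adm do not overlap between high and low, while for Vegfa 1 low-tier library, WT 17 at 131.3 CPM, lies among the high tier and for Slc16a3 2 high-tier libraries, KO 2 at 2.61 CPM and KO 6 at 9.57 CPM, lie within the range of the low tier.

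Several libraries stood apart. The hypoxia score, the mean centred log2 CPM of the tested hypoxia-response genes without Car9 and Adm, was −0.07 in high KO 2, below the 0.13 of low KO 11 and the 0.10 of low WT 17, and KO 7 of the middle tier stood at 0.26, above 6 of the 8 high libraries. Of the lists behind the KO 11 score, glycogen handling stood at 1.65, glycolysis at 0.22 and the hypoxic mitochondrial switch at 0.08. The oxygen sensor, collagen enzyme and regulator lists of KO 11 stood at −0.002, −0.10 and −0.21. KO 12 and WT 23 had the highest hypoxia scores, 0.51 and 0.49. KO 12 also had the lowest TMM scaling factor of the 16 libraries, 0.826, and KO 11 the highest scores for T cells (3.06), B and plasma cells (5.10), adipocytes (3.88) and skeletal muscle (6.31). Differences between the tiers did not pass for library total (18789250 to 38022182 reads in the high tier, 18799631 to 29557910 in the low tier, exact permutation p = 0.677, two-sided), for TMM factor (p = 0.104) or for the number of genes with a read (p = 0.109), in exact permutation tests over 4900 arrangements whose smallest p is 0.000408. A p above the threshold does not show that these measures were alike.

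**Figure D2:**
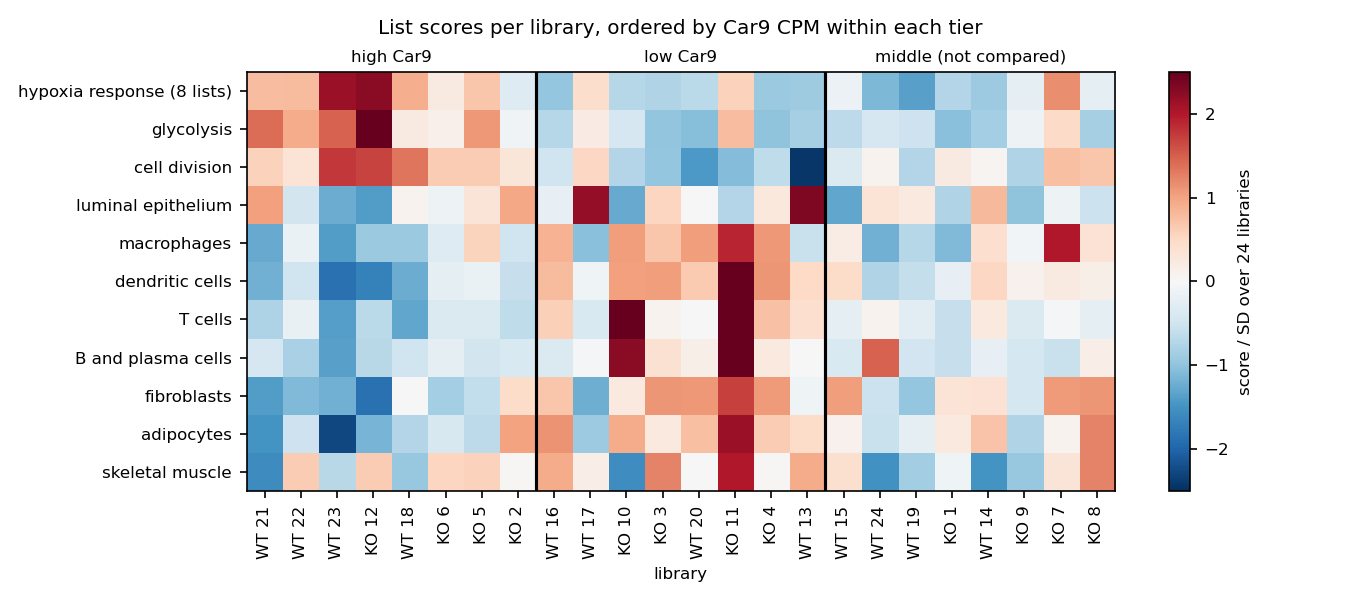
Each column is 1 library, ordered by Car9 CPM within its tier, and each row a gene list score divided by its SD over the 24 libraries (red above, blue below the mean). The hypoxia row is red in 7 of the 8 high libraries and also in low KO 11 and WT 17, and the T cell and B cell rows are darkest in low KO 11 and KO 10.

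Across the transcriptome, genes called higher in the high Car9 tier included members of the lists for glycolysis, lactate export, collagen processing and cell division. Genes called lower included class II genes and markers of dendritic cells, of T, B and cytotoxic cells, of fibroblasts and of fat. With the title group as a block, edgeR's quasi-likelihood test called 984 of 16813 genes at a Benjamini-Hochberg adjusted p under 0.05, which is 5.85%. Of these, 441 were higher in the high tier (2.62%) and 543 lower (3.23%), with Car9 left out of the count. In bulk tissue, fewer cells of a type and less RNA per cell cannot be told apart.

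The number of calls rested heavily on single libraries. Leaving out 1 library gave 126 calls without WT 20, 140 without KO 11, 254 without WT 23, 368 without KO 6, 435 without WT 13, 442 without KO 5, 444 without WT 16, 546 without KO 4 and 574 without KO 3, while leaving out WT 17 gave 1977. Without KO 11 and KO 12 together 166 genes were called. Of the 75 called genes named here, 25 were called in each of the 16 fits that left out 1 library, 13 of them higher and 12 lower. The named genes were partly picked by small p-values, so this share is not that of all calls. Of all 984 calls, 125 were called in the same direction without WT 20 and 140 without KO 11. T cell, adipocyte, fibroblast and cell division scores moved with the tier, and with any 1 of them as a covariate edgeR called 0 genes. At an unadjusted p under 0.05 these fits held 1246 genes with the T cell score, 1099 with the adipocyte score, 1380 with the fibroblast score and 672 with the cell division score, against 4330 without a covariate.

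Of 96 hypoxia-response genes in 8 lists (Car9 and Adm left out), 94 were tested, 22 were called higher (23.4%, against 2.62% of all tested genes) and 0 lower. Their median log2 difference was 0.36, against 0.006 for all tested genes, and 68 of the 94 had a positive one. The count of 22 fell to 4 without WT 20, 5 without KO 11, 7 without WT 16, 7 without WT 23, 9 without KO 3, 9 without WT 13, 10 without KO 4, 13 without KO 6 and 14 without KO 10. It was 0 with each of the T cell, adipocyte, fibroblast and cell division scores as a covariate.

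Among the oxygen sensors and HIF subunits, 2 of 11 tested genes were called higher (18.2%, against 2.62% of all tested genes). Differences were positive for 7 and negative for 4, from −2.13 to 1.22. Egln3 encodes a prolyl hydroxylase that marks HIF alpha for destruction and is itself a HIF target. In the high tier it had 185.7, 277.8, 310.9 and 399.7 CPM in KO 2, 5, 6 and 12 and 343, 271, 521 and 381 CPM in WT 18, 21, 22 and 23. In the low tier it had 146, 143, 139 and 139.5 CPM in KO 3, 4, 10 and 11 and 119, 149.7, 166 and 204 CPM in WT 13, 16, 17 and 20. The tiers overlapped only through high KO 2, which lay below low WT 20. Egln3 (chromosome 12, 54225767 to 54250660, minus strand, GRCm39) was higher by 1.22 ± 0.17 on the log2 scale (SE, adjusted p = 0.00941, edgeR), and was called in 16 of 16 fits that left out 1 library. Arnt2, an alternative partner of the HIF alpha subunits, rose by 1.17 ± 0.32 (adjusted p = 0.0456), but was called in only 4 of the 16. Hif1a and Epas1, which encode HIF alpha subunits that are controlled largely at the protein level, had log2 differences of 0.06 ± 0.16 and −0.35 ± 0.19 with adjusted p = 0.849 and 0.254. The median of the list was 0.06.

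Genes for pH regulation and lactate export had a median difference of 0.61 over 8 tested members, 7 of them with a positive one. Of the 8, 3 were called higher (37.5%, against 2.62% of all tested genes). Slc16a3 encodes MCT4, the exporter of lactate from glycolytic cells. It had 2.61 to 56.1 CPM in the high tier (median 13.3) and 2.17 to 10.5 CPM in the low tier (median 4.25), a log2 difference of 2.27 ± 0.58 (adjusted p = 0.0367, edgeR). In 7 of the 8 high libraries it exceeded the low-tier median, and KO 12 and WT 23 were the highest at 56.1 and 55.7 CPM. Slc16a3 was called in 7 of the 16 fits that left out 1 library, differed by 1.64 without KO 12, and had a log2 difference of −0.10 with the cell division score as a covariate. Slc16a1, which encodes the lactate transporter MCT1, rose by 0.93 ± 0.26 and Bsg, the chaperone that carries both transporters to the membrane, by 0.70 ± 0.18 (adjusted p = 0.0489 and 0.0381). They were called in 4 and 7 of the 16 fits.

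Glucose uptake and glycolysis had 7 of 20 tested genes called higher (35%, against 2.62% of all tested genes), 0 lower, and a median of 0.57. The summed level of the list was 7490 to 14700 CPM in the high tier and 5630 to 7850 CPM in the low tier. Pgam1, phosphoglycerate mutase, had 43.9 to 86.9 CPM in the high tier (median 67.9) and 27.5 to 61.3 CPM in the low tier (median 34.0). Every high library lay above all low libraries but WT 17. The difference was 0.97 ± 0.16 (adjusted p = 0.0145, edgeR). Pgk1, phosphoglycerate kinase, had 106 to 454 CPM in the high tier (median 196) and 72.3 to 134 CPM in the low tier (median 89.3), a difference of 1.35 ± 0.27 (adjusted p = 0.0201). Both were called in 16 of 16 fits that left out 1 library.

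The glucose transporter gene Slc2a1 rose by 1.10 ± 0.26 (adjusted p = 0.0292), with 66.3 to 263 CPM in the high tier and 61.3 to 100.3 CPM in the low tier. KO 12 was the highest library and KO 2 the only high library below the low-tier median. Pfkl (0.58), Tpi1 (0.86), Pkm (0.68) and Gapdh (0.93), which act at separate steps of glycolysis, rose with adjusted p between 0.0337 and 0.0378 in edgeR's quasi-likelihood test. They were called in 9, 9, 7 and 6 of the 16 fits that left out 1 library, and Slc2a1 in 11. Pkm, pyruvate kinase, had tiers that did not overlap, at 1438 to 2840 CPM in the high tier and 941 to 1356 CPM in the low tier. Ldha, which makes lactate from pyruvate, had 1025 to 2362 CPM in the high tier and 855 to 1745 CPM in the low tier, a difference of 0.56 ± 0.19 that did not pass (adjusted p = 0.0859). Several of these enzymes, Gapdh, Pgk1, Pgam1, Tpi1 and Ldha among them, have processed pseudogenes in the mouse genome, and the authors' counting left out reads with several equally placed positions, so their levels carry that uncertainty.

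Among 11 tested genes of the hypoxic mitochondrial switch and mitophagy, 4 were called higher (36.4%, against 2.62% of all tested genes). Differences were positive for 9 of the 11, and the median was 0.44. Ak4, a mitochondrial adenylate kinase, had 8.93 to 82.3 CPM in the high tier (median 37.2) and 5.21 to 27.3 CPM in the low tier (median 8.64). It rose by 2.10 ± 0.44 (adjusted p = 0.0226), a call lost without KO 11 or without WT 20. Pdk1 and Pdk3, kinases that hold pyruvate back from the mitochondrion, rose by 0.44 ± 0.12 and 0.48 ± 0.12 (adjusted p = 0.0422 and 0.0352). Fam162a, a mitochondrial HIF target, rose by 1.02 ± 0.28 (adjusted p = 0.0446) and by 0.63 without KO 12. Pdk1, Pdk3 and Fam162a were called in 4, 9 and 4 of the 16 fits that left out 1 library. Bnip3, a mitophagy receptor, had 29.6 to 108 CPM in the high tier and 23.9 to 58.3 CPM in the low tier, and its difference of 0.77 ± 0.28 did not pass (adjusted p = 0.0990). Hilpda, a lipid droplet protein and HIF target, showed a difference of −0.10 ± 0.15 (adjusted p = 0.727).

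The genes for the respiratory chain and ATP synthase and for the tricarboxylic acid cycle gave 0 calls of 19 and 0 of 12 tested in edgeR. At an unadjusted p under 0.05 they also held 0 genes, and DESeq2 and limma voom called 0. Their medians were 0.18 and 0.07, and the differences of the respiratory genes ran from −0.07 to 0.30 with 17 of 19 above 0. Glycogen handling gave 0 calls of 9 tested genes in edgeR and limma voom, 1 lower in DESeq2 and 3 at an unadjusted p under 0.05, with a median of −0.11.

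Vegfa, the main growth factor of new vessels, was the only call among 10 tested secreted and vascular hypoxia targets (10%, against 2.62% of all tested genes). The median of the list was 0.38, with 6 positive differences and 4 negative. Vegfa had 68.0, 93.9, 98.2 and 269.9 CPM in high KO 2, 5, 6 and 12 and 118, 167, 130.1 and 331 CPM in high WT 18, 21, 22 and 23. It had 36.0, 21.4, 38.4 and 44.3 CPM in low KO 3, 4, 10 and 11 and 29.6, 35.8, 131.3 and 22.4 CPM in low WT 13, 16, 17 and 20. Every high library lay above every low library except WT 17, which lay within the range of the high tier. The difference was 1.94 ± 0.41 (adjusted p = 0.0226, edgeR), and the call was lost only without WT 20, among the fits that left out 1 library. The summed level of endothelial markers was 119 to 261 CPM in the high tier and 127 to 290.0 CPM in the low tier, with 0 of 13 tested markers called by edgeR, DESeq2 or limma voom, 3 at an unadjusted p under 0.05, and a median of −0.19.

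The oxygen-dependent collagen enzymes had 3 calls of 10 tested, all higher (30%, against 2.62% of all tested genes), with a median of 0.44. Ero1a, an endoplasmic reticulum oxidase that supports disulfide formation, had 85.9 to 214 CPM in the high tier (median 123) and 47.7 to 84.8 CPM in the low tier (median 61.5). These tiers did not overlap. It rose by 1.17 ± 0.21 (adjusted p = 0.0150) and was called in 16 of 16 fits that left out 1 library. Plod2, a lysyl hydroxylase that prepares collagen for cross-linking, rose by 1.06 ± 0.23 and P4ha1, a collagen prolyl hydroxylase subunit, by 0.75 ± 0.20 (adjusted p = 0.0259 and 0.0424). Plod2 was called in 13 and P4ha1 in 5 of the 16 fits. Of the 12 fibroblast and matrix genes tested, fibrillar collagens among them, 0 had a positive difference and 3 were called lower.

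Of 15 tested hypoxia-inducible regulators of transcription, chromatin and growth, 2 were called higher (13.3%, against 2.62% of all tested genes). Differences were positive for 11 of the 15, and the median was 0.21. Maff, a small Maf transcription factor, rose by 1.42 ± 0.35 and Ier3, an immediate-early stress gene, by 0.66 ± 0.17 (adjusted p = 0.0339 and 0.0410, edgeR). Maff was called in 7 and Ier3 in 4 of the 16 fits that left out 1 library. Ankrd37 and Ndrg1, both HIF targets, had differences of 1.93 ± 0.59 and 1.11 ± 0.37 that did not pass (adjusted p = 0.0631 and 0.0825). Ankrd37 stood at 33 CPM in KO 12 and between 1.92 and 11.3 CPM in the other high libraries, against 0.643 to 4.49 CPM in the low tier, and its difference was 1.19 without KO 12.

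**Figure D3:**
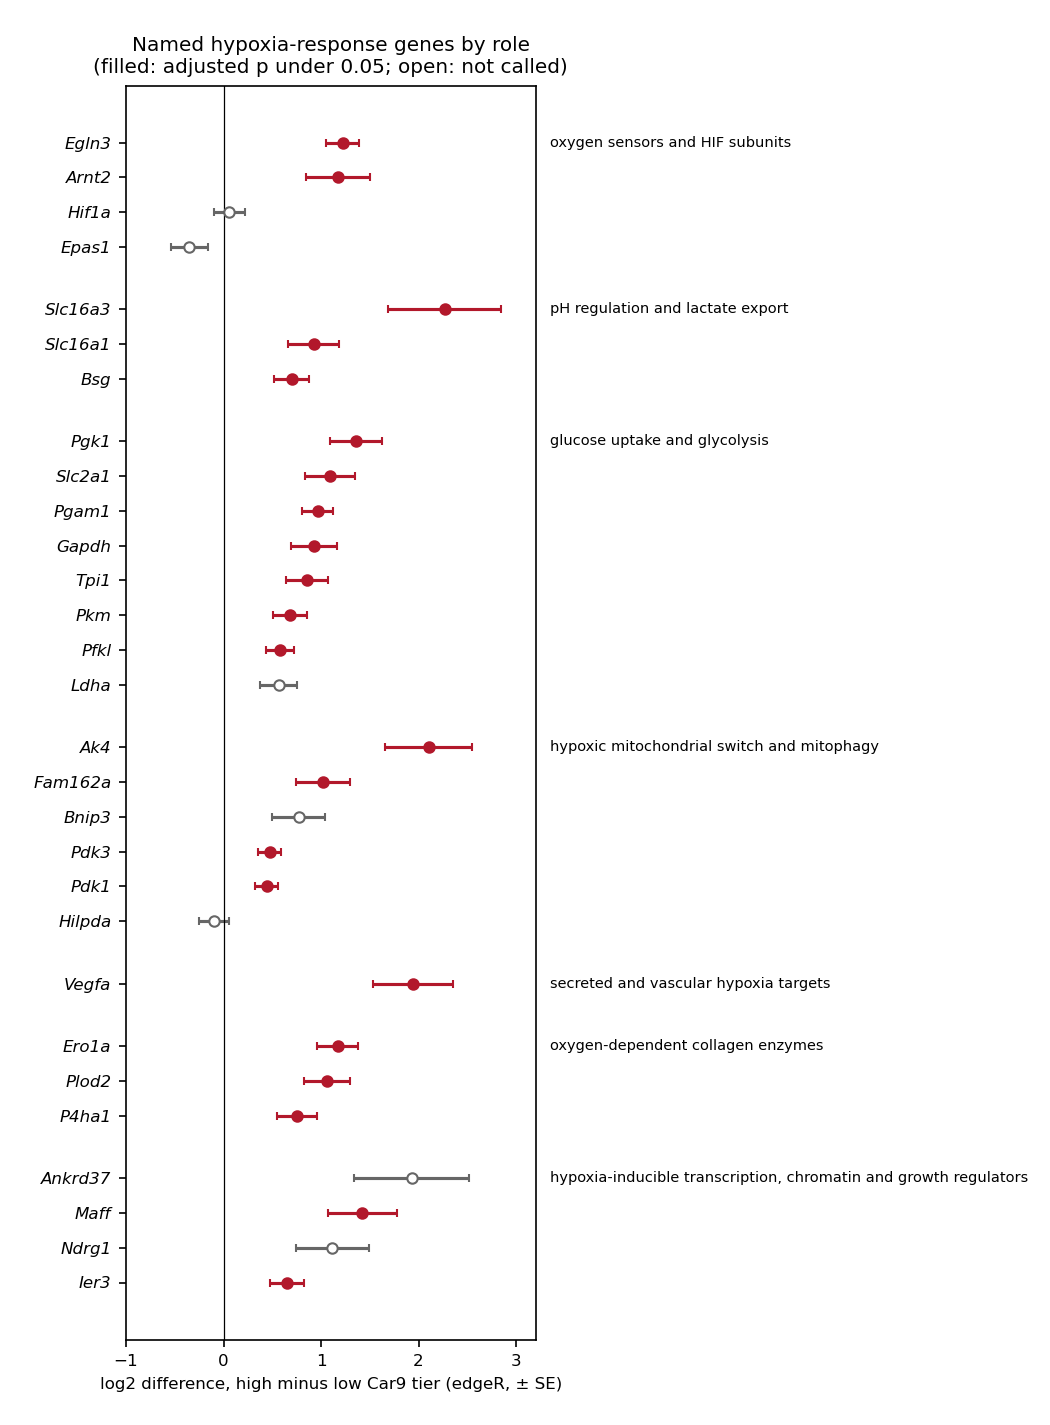
Log2 difference between the high and low tiers with its SE (edgeR), for the called members of the hypoxia-response lists and a fixed panel, grouped by role; filled red points passed an adjusted p of 0.05 and open points did not. Egln3, Slc16a3, Pgk1, Ak4 and Vegfa are among the filled points, and Hif1a at 0.06, Epas1 at −0.35 and Hilpda at −0.10 lie around 0.

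The high-low differences were also fitted within each label. Among the libraries labelled KO, 4 high against 4 low, 0 of 15783 genes were called (2778 at an unadjusted p under 0.05, edgeR), and among those labelled WT 1 of 16186 was called (0.00618%, 1758 unadjusted). The single gene, Gsn, encodes the actin-severing protein gelsolin and is named here after its values were seen, outside the rule for named genes. Its log2 difference was −1.15 in KO libraries and −1.39 in WT libraries, where its adjusted p was 0.0327. The interaction of tier and label passed for 0 of 16814 genes (528 unadjusted). Egln3 differed between tiers by 1.14 in KO libraries and 1.27 in WT libraries. Pgk1 differed by 1.44 in KO and 1.24 in WT, Vegfa by 2.05 in KO and 1.81 in WT, and Slc16a3 by 2.10 in KO and 2.39 in WT. Other called hypoxia-response genes were less alike. Plod2 differed by 0.52 in KO and 1.57 in WT (interaction p = 0.0193 unadjusted, 0.991 adjusted, edgeR). P4ha1 differed by 0.39 in KO and 1.075 in WT, and Slc16a1 by 0.51 in KO and 1.32 in WT. All these genes were called from the same libraries, so a shared direction is partly built in.

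The 8 middle libraries took no part in the comparison. The mean of the middle tier lay between the means of the high and low tiers for most called genes. This held for 414 of the 441 genes called higher and 526 of the 543 called lower. Called genes were picked for separated high and low tiers, so a middle mean between them is partly built in. The share among all tested genes was not counted. Within the middle tier, the slope on log2 Car9 CPM was positive for 277 of 441 genes called higher (62.8%), for 145 of 543 called lower (26.7%) and for 47.3% of all tested genes. Slopes differed between the hypoxia genes: 0.98 for Egln3, 0.15 for Pgk1, −0.01 for Pgam1, −0.58 for Vegfa, −0.33 for Slc16a3 and −0.51 for Adm. They also differed between genes called lower. H2-Ab1, H2-Eb1, Cd74 and Xcr1 had positive slopes (0.25, 0.18, 0.28 and 0.72), opposite to their difference between tiers. H2-Aa, Cd3d, Dcn and Adipoq had negative ones (−0.07, −0.08, −0.73 and −2.24). No slope in the middle tier was called (0 of 16814, with 242 at an unadjusted p under 0.05, edgeR).

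Cell division genes were higher in the high tier: all 15 tested had a positive difference, and the median was 0.97. Of these, 14 were called (93.3%, against 2.62% of all tested genes). Their summed level was 1240 to 2040 CPM in the high tier and 457 to 1420 CPM in the low tier. Ccnb1, cyclin B1 of mitotic entry, had 45.4, 45.7, 51.3 and 65.8 CPM in high KO 2, 5, 6 and 12 and 65.2, 42.1, 44.1 and 76.2 CPM in high WT 18, 21, 22 and 23. It had 26.1, 29.9, 29.5 and 28.7 CPM in low KO 3, 4, 10 and 11 and 13.7, 35.8, 39.2 and 22.7 CPM in low WT 13, 16, 17 and 20. The tiers of Ccnb1 did not overlap, and the difference was 1.02 ± 0.20 (adjusted p = 0.0191, edgeR). The mitotic kinase genes Bub1 and Plk1 rose by 1.02 ± 0.19 and 1.04 ± 0.20 (adjusted p = 0.0175 and 0.0180). Bub1, Plk1 and Ccnb1 were called in 16 of 16 fits that left out 1 library.

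DNA replication genes had 11 of 15 tested called higher (73.3%, against 2.62% of all tested genes), 0 lower, with a median of 0.66. Ccne1, cyclin E1 of S phase entry, rose by 1.25 ± 0.25, with 9.25 to 29.5 CPM in the high tier and 4.40 to 11.7 CPM in the low tier (adjusted p = 0.0201). The replicative helicase genes Cdc45 and Mcm4 rose by 0.87 ± 0.19 and 0.57 ± 0.13 (adjusted p = 0.0264 and 0.0259), calls that were lost without KO 11 or without WT 20. Tfrc, the transferrin receptor for iron uptake, rose by 0.82 ± 0.16 (adjusted p = 0.0201) and was the only call among 8 tested iron genes. The stress response list had 2 of 14 tested genes called, Phgdh of serine synthesis (0.83 ± 0.20) and Trib3, a pseudokinase of the integrated stress response (1.00 ± 0.26). Ptgs2, which encodes the prostaglandin enzyme COX-2, was the only call among 16 tested inflammation genes, at 11.4 to 63.2 CPM in the high tier and 3.99 to 22.02 CPM in the low tier (1.48 ± 0.39, adjusted p = 0.0398). Phgdh, Trib3 and Ptgs2 were called in 11, 5 and 5 of the 16 fits that left out 1 library. The iron, stress response and inflammation lists had 12.5%, 14.3% and 6.25% of tested members called higher, against 2.62% of all tested genes. In edgeR, heat shock genes gave 0 calls of 9 (5 at an unadjusted p under 0.05), keratinisation 0 of 12 (1 unadjusted), mesenchymal transition genes 0 of 9 (3 unadjusted) and interferon-stimulated genes 0 of 15 (0 unadjusted) with a median of −0.36. DESeq2 called 1 heat shock gene higher and 2 mesenchymal transition genes lower, and limma voom called 0 in these 4 lists.

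Of the genes for class II molecules, which present antigen to helper T cells, 3 were named for p-values among the smallest of the comparison and Cd74 as a member of the dendritic cell list. No list of class II genes was counted. H2-Ab1, a class II beta chain, had 178.8, 202, 221 and 148 CPM in high KO 2, 5, 6 and 12 and 148, 182, 248 and 112 CPM in high WT 18, 21, 22 and 23. It had 381, 382, 417 and 475 CPM in low KO 3, 4, 10 and 11 and 298, 296, 310.4 and 323 CPM in low WT 13, 16, 17 and 20. The tiers did not overlap. H2-Ab1, H2-Eb1 and H2-Aa, the chains of class II molecules, and Cd74, their invariant chain, fell, with log2 differences of −0.93 ± 0.13, −1.005 ± 0.14, −1.11 ± 0.16 and −0.92 ± 0.15 (adjusted p = 0.00941, 0.00941, 0.0120 and 0.0145, edgeR). All 4 were called in 16 of 16 fits that left out 1 library. The difference of H2-Ab1 was −1.09 in KO libraries and −0.80 in WT libraries, with an adjusted interaction p of 0.991 in edgeR.

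Class II promoters share a set of boxes that includes an inverted CCAAT, the Y box. Its letters ATTGG were searched with their reverse complement CCAAT on either strand in the same windows (RefSeq, GRCm38.p6) and are in capitals below. Counted in the same way, they were found for 42.2% of all tested genes with a window, for 52.2% of those called higher and for 35.6% of those called lower. The windows of H2-Aa and H2-Eb1 are shown because both genes fell and both hold the letters, H2-Aa 48 bases before its start and H2-Eb1 59 and 35 bases before its start.

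H2-Aa (chr17:34287774-34288073, minus strand): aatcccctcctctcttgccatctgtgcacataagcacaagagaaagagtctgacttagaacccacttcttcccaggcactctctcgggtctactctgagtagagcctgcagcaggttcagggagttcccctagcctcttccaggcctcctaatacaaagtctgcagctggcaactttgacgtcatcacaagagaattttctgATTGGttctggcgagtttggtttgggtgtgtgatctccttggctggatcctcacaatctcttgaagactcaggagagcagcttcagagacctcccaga
H2-Eb1 (chr17:34305617-34305916, plus strand): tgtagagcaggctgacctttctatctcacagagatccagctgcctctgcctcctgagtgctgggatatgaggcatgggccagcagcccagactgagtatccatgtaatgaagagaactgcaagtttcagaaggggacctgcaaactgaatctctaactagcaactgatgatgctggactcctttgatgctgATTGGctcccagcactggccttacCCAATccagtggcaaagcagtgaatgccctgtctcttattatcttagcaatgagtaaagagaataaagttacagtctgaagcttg

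Dendritic cell markers had 6 of 10 tested genes called lower (60%, against 3.23% of all tested genes) with a median of −1.20, and a summed level of 376 to 857 CPM in the high tier and 960 to 1570 CPM in the low tier. The list and its 6 calls include H2-Ab1 and Cd74, already given above. H2-Ab1 and Cd74 had 248.5 and 546.9 CPM in high WT 22 and 475.4 and 1012 CPM in low KO 11. The summed level therefore rests mostly on these class II genes, which are not particular to dendritic cells. Xcr1, a chemokine receptor of cross-presenting dendritic cells, had 0.392, 0.336, 0.395 and 0.213 CPM in high KO 2, 5, 6 and 12 and 0.421, 0.343, 0.323 and 0.182 CPM in high WT 18, 21, 22 and 23. It had 1.44, 1.67, 1.53 and 3.61 CPM in low KO 3, 4, 10 and 11 and 1.18, 1.20, 1.12 and 0.742 CPM in low WT 13, 16, 17 and 20. These levels are low, since 3 reads correspond to between 0.0789 and 0.16 CPM, but the tiers did not overlap and the difference was −2.12 ± 0.28 (adjusted p = 0.00941, the smallest of the comparison, shared by AI504432, H2-Eb1, Egln3 and H2-Ab1). AI504432 had 0.852 to 1.93 CPM in the high tier and 2.64 to 6.16 CPM in the low tier, a difference of −1.45 ± 0.19.

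T cell markers had 8 of 12 tested genes called lower (66.7%, against 3.23% of all tested genes), 0 higher, and a median of −2.01. Their summed level was 11.2 to 20.9 CPM in the high tier and 20.5 to 178 CPM in the low tier. Cd3d, a subunit of the T cell receptor complex, had 0.289 to 0.922 CPM in the high tier (median 0.459) and 1.01 to 11.4 CPM in the low tier (median 1.71). The tiers did not overlap, and KO 11 and KO 10 were the highest at 11.4 and 9.04 CPM. The log2 difference of Cd3d was −2.54 ± 0.54 (adjusted p = 0.0226), −3.65 in KO libraries and −1.45 in WT libraries. Cd2, an adhesion receptor of T cells, and Cd4, the coreceptor of helper T cells, also fell (−2.08 ± 0.44 and −1.69 ± 0.38, adjusted p = 0.0226 and 0.0264). Cd3d and Cd2 were called in 16 of 16 fits that left out 1 library, and without KO 11 their differences were −2.24 and −1.73. Cd4 was called in 12 of the 16.

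Among 9 tested genes of regulatory T and cytotoxic cells 5 were called lower (55.6%, against 3.23% of all tested genes). All 9 had a negative difference, and the median was −1.26. Nkg7, a granule protein of killer cells, had 0.106 to 1.49 CPM in the high tier and 1.09 to 7.54 CPM in the low tier, a difference of −2.22 ± 0.43 (adjusted p = 0.0191) that was called in 16 of 16 fits. Prf1, which encodes perforin, had 0 to 0.349 CPM in the high tier and 0.411 to 2.94 CPM in the low tier, without overlap, a difference of −2.73 ± 0.56 (adjusted p = 0.0226) lost only without KO 11. Ncr1, a receptor of natural killer cells, fell by 2.25 ± 0.54 (adjusted p = 0.0315) and was called in 11 of the 16 fits.

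B and plasma cell markers had 3 of 7 tested genes called lower (42.9%, against 3.23% of all tested genes) and a median of −2.76. Their summed level was 3.46 to 19.7 CPM in the high tier and 22.2 to 586 CPM in the low tier. Ighm, the constant region of IgM, had 2.40 to 14.1 CPM in the high tier and 15.6 to 290.4 CPM in the low tier, which did not overlap (−2.49 ± 0.56, adjusted p = 0.0274). Pax5, a B cell transcription factor, and Cd79b, a B cell receptor subunit, also fell (−2.77 ± 0.70 and −3.58 ± 0.85, adjusted p = 0.0367 and 0.0309). Ighm, Pax5 and Cd79b were called in 12, 8 and 10 of the 16 fits that left out 1 library, and Cd79b differed by −2.98 without KO 11. Ccl21a, a chemokine that attracts CCR7-bearing cells, had 0.0428 to 2.40 CPM in the high tier and 2.80 to 61.1 CPM in the low tier, without overlap (−3.66 ± 0.66, adjusted p = 0.0155).

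Macrophage markers had 5 of 12 tested genes called lower (41.7%, against 3.23% of all tested genes) and a median of −0.53. Their summed level was 730.0 to 1090 CPM in the high tier and 946 to 1590 CPM in the low tier. Csf1r, the receptor of the macrophage growth factor, and the complement genes C1qa and C1qc fell (−0.77 ± 0.19, −0.58 ± 0.15 and −0.56 ± 0.15, adjusted p = 0.0350, 0.0406 and 0.0435, edgeR). They were called in 10, 6 and 3 of the 16 fits that left out 1 library. Markers of hypoxic macrophages gave 0 calls of 10 tested in edgeR (4 at an unadjusted p under 0.05, 2 higher and 1 lower in DESeq2, 0 in limma voom) with a median of 0.31, and neutrophil markers 0 of 6 (2 unadjusted, 0 in DESeq2 and limma voom).

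Fibroblast and matrix genes had 3 of 12 tested called lower (25%, against 3.23% of all tested genes) and a median of −0.79. Their summed level was 1050 to 3730 CPM in the high tier and 1650 to 5720 CPM in the low tier. Dcn, which encodes the matrix proteoglycan decorin, had 43.1 to 174.8 CPM in the high tier (median 86.3) and 132 to 568 CPM in the low tier (median 292). Low KO 10 and WT 17 lay within the range of the high tier. Dcn fell by 1.61 ± 0.29 (adjusted p = 0.0150) and was called in 16 of 16 fits. Lum, another matrix proteoglycan, and Thy1, a fibroblast surface protein also present on mouse T cells, fell (−1.49 ± 0.32 and −0.88 ± 0.21, adjusted p = 0.0226 and 0.0292), calls that held in 14 and 11 of the 16 fits.

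Adipocyte genes had 5 of 9 tested called lower (55.6%, against 3.23% of all tested genes) and a median of −2.51. The mammary gland lies in a fat pad, and the summed level of these genes was 38.9 to 905 CPM in the high tier and 105 to 3940 CPM in the low tier, a range that reaches far into the other tier. Adipoq, the fat hormone adiponectin, had 60.9, 6.47, 12.7 and 2.501 CPM in high KO 2, 5, 6 and 12 and 4.84, 2.79, 8.85 and 0.656 CPM in high WT 18, 21, 22 and 23. It had 29.3, 32.7, 57.5 and 275.5 CPM in low KO 3, 4, 10 and 11 and 42.1, 78.6, 5.20 and 42.1 CPM in low WT 13, 16, 17 and 20. High KO 2 lay among the low libraries and low WT 17 among the high ones. The difference was −2.74 ± 0.73 (adjusted p = 0.0412), called in 6 of the 16 fits, and it was −3.49 without KO 2. Retn and Lpl, further adipocyte genes, fell, with differences of −2.96 ± 0.73 and −1.63 ± 0.40, and were called in 9 and 10 of the 16. Skeletal muscle genes had a median of −2.52 but 0 calls of 9 tested in edgeR (7 at an unadjusted p under 0.05, 2 lower in DESeq2, 0 in limma voom), and their summed level was 1.37 to 322 CPM in the high tier and 1.83 to 5760 CPM in the low tier. The part of muscle RNA in the other differences was not tested.

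**Figure D4:**
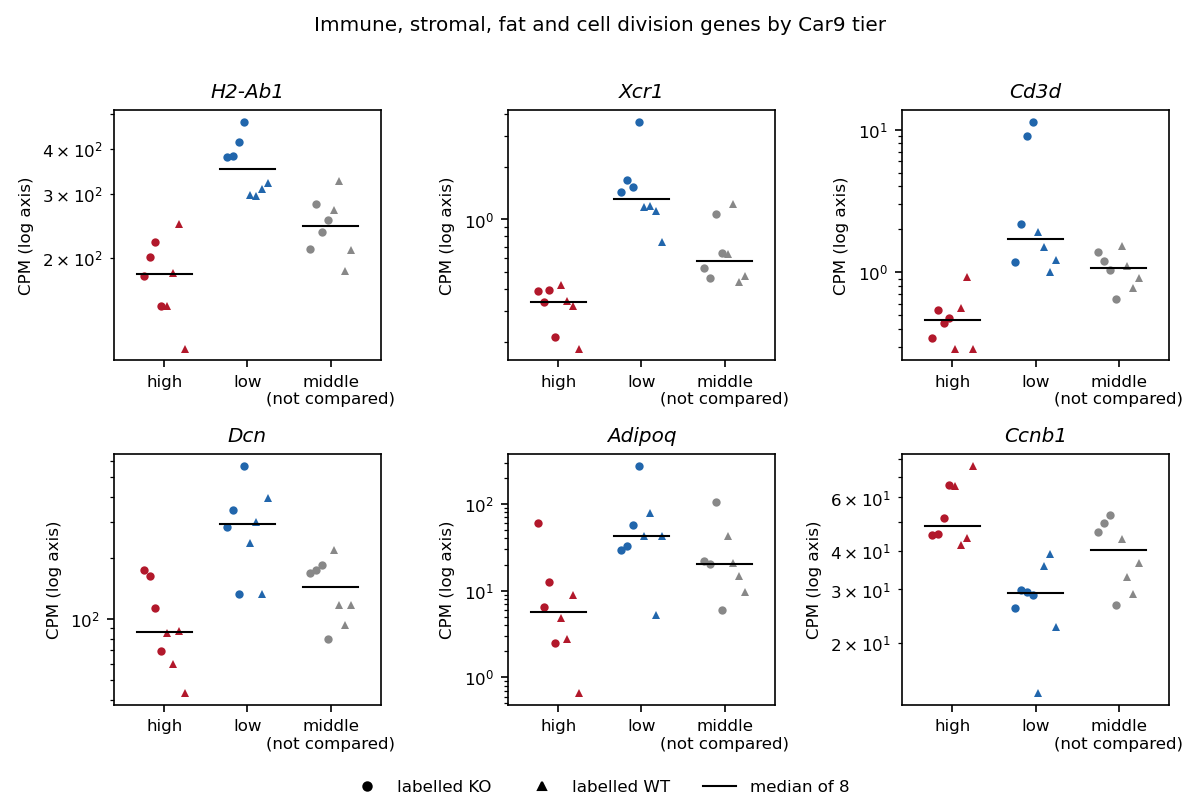
Each point is 1 library (circles labelled KO, triangles labelled WT), in CPM on a log axis with the median of 8 as a line, for a class II gene, a dendritic cell, T cell, fibroblast, adipocyte and cell division gene. H2-Ab1, Xcr1, Cd3d and Ccnb1 do not overlap between the high and low tiers, while Adipoq overlaps through high KO 2 at 60.9 CPM and low WT 17 at 5.20 CPM.

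Luminal epithelial markers gave 0 calls of 15 tested in edgeR (3 at an unadjusted p under 0.05, 1 lower in DESeq2, 0 in limma voom) with a median of 0.05, and their summed level was 5660 to 8800 CPM in the high tier and 5090 to 9840 CPM in the low tier. The keratin genes Krt8 and Krt18 had differences of 0.34 ± 0.22 and 0.36 ± 0.25 (adjusted p = 0.334 and 0.386). Basal and myoepithelial markers gave 0 calls of 9 (0 unadjusted, 0 in DESeq2 and limma voom) with a median of −0.68. Milk genes had a summed level of 3850 to 21900 CPM in the high tier and 6350 to 14200 CPM in the low tier. Of the 9 tested, 5 had a positive and 4 a negative difference, with a median of 0.18, and 1 was called higher (11.1%, against 2.62% of all tested genes). That call, Csn1s1, which encodes a casein, had 54.5 to 1727 CPM in the high tier (median 217) and 10.9 to 164.6 CPM in the low tier (median 17.7). It rose by 3.24 ± 0.90 (adjusted p = 0.0462) in the comparison of 4 with 4 libraries per label, and was called in 4 of the 16 fits that left out 1 library. Csn1s1 differed by 2.56 without KO 12 and 4.05 without WT 17, and by −0.39 with 6 libraries per tier and label. That last fit places KO 7, of the middle tier here, in its low tier, and KO 7 had 15010 CPM of Csn1s1. Ncmap, a myelin-associated gene, was the only call of 7 nerve markers (1.08 ± 0.28, adjusted p = 0.0397), was called in 6 of the 16 fits, and was highest in WT 22 at 44.2 CPM. Of the 7 nerve markers, 2 had a positive and 5 a negative difference, with a median of −0.09.

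**Figure D5:**
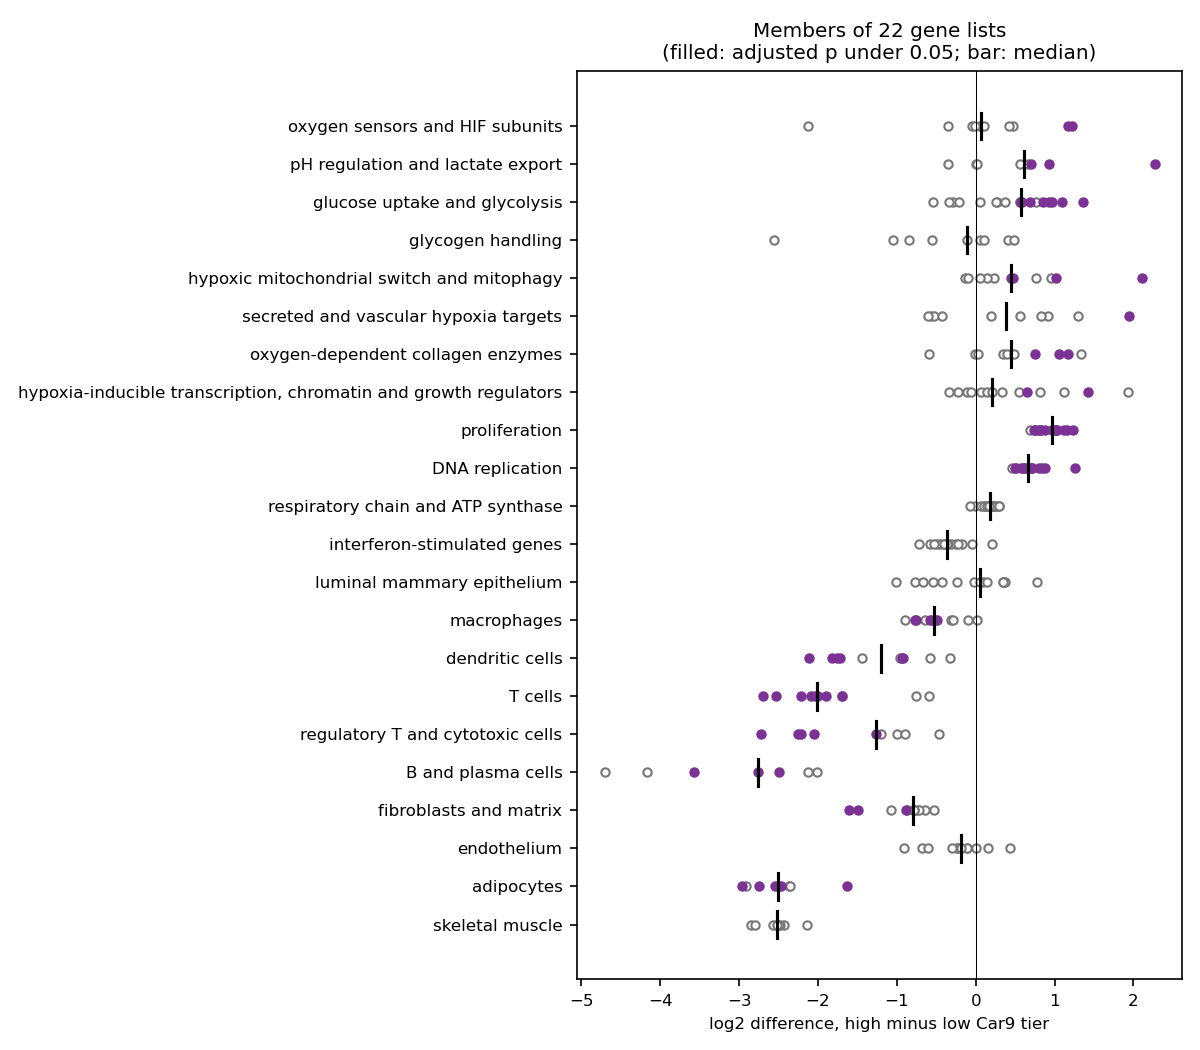
Log2 difference between the high and low tiers for the tested members of 22 gene lists, with the median of each list as a bar; filled points passed an adjusted p of 0.05 (edgeR). Cell division (row "proliferation", median 0.97) and DNA replication (median 0.66) lie to the right of 0, T cells (median −2.01), B and plasma cells (median −2.76) and adipocytes (median −2.51) to the left, and skeletal muscle (median −2.52) lies left with no filled point.

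Among the called genes with the smallest p-values outside the lists, Aqp9, Slc20a1 and Fbp1 were higher. Aqp9, a channel for water and glycerol, had 6.47 to 22.3 CPM in the high tier (median 8.91) and 1.23 to 4.63 CPM in the low tier (median 2.89), without overlap, a difference of 2.13 ± 0.32 (adjusted p = 0.0123, edgeR). Slc20a1, a sodium-phosphate transporter, had 86.7 to 224 CPM in the high tier and 39.8 to 68.9 CPM in the low tier, without overlap, a difference of 1.23 ± 0.21 (adjusted p = 0.0145). Fbp1, fructose-bisphosphatase of gluconeogenesis, rose by 1.33 ± 0.23 (adjusted p = 0.0145), with 4.03 to 8.30 CPM in the high tier and 1.19 to 4.04 CPM in the low tier. All 3 were called in 16 of 16 fits that left out 1 library. Tiers did not overlap for 80 of the 16813 tested genes (0.476%), for 16 of the 441 called higher (3.63%) and for 57 of the 543 called lower (10.5%).

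The largest called rises were mostly set by few libraries. Klk6, a secreted kallikrein protease, had 81.4 CPM in KO 12 and 0.132 to 8.998 CPM in the other high libraries, against 0 to 0.524 CPM in the low tier (4.98 ± 1.29, 3.34 without KO 12 and 5.95 without WT 20). Nppc, the precursor of C-type natriuretic peptide, had 22.2 CPM in KO 12 and 0.128 to 2.26 CPM in the other high libraries (4.46 ± 1.04, and 2.53 without KO 12). Adm2, a peptide of the adrenomedullin family, rose by 3.65 ± 0.92, and by 2.41 without KO 12. Fstl4, of the follistatin-like family, rose by 4.70 ± 1.03, and by 3.37 without KO 12. Bpifb5, of the BPI-fold family, rose by 3.41 ± 0.97, had a difference of 2.41 without KO 12, and was called in only 2 of the 16 fits that left out 1 library. Peg10, an imprinted gene derived from a retrotransposon, rose by 3.51 ± 0.70. Mgarp, a mitochondrial protein gene, had 0.305 to 3.52 CPM in the high tier and 0.0427 to 0.748 CPM in the low tier, and its rise of 3.08 ± 0.54 (adjusted p = 0.0145) was the only one of the 8 largest called in 16 of 16 fits that left out 1 library.

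The largest called falls included B cell genes. Spib, a transcription factor of B and plasmacytoid cells, had 0 to 0.505 CPM in the high tier and 27.0, 22.6 and 10 CPM in low WT 17, KO 11 and KO 10, with 0.237 to 0.469 CPM in the other low libraries. Its difference was −5.10 ± 1.21, and −3.39 without WT 17, where it was not called. Ighd, the constant region of IgD, had 0 to 0.261 CPM in the high tier and 0.112 to 27.1 CPM in the low tier, and fell by 4.61 ± 0.96 (−3.70 without KO 11). Inmt, a methyltransferase, Ces1f, a carboxylesterase from a cluster of close paralogs, and A530016L24Rik had differences of −3.56 ± 0.74, −3.49 ± 0.90 and −3.58 ± 0.83. Without KO 11 these were −2.71, −2.57 and −2.74 and none of the 3 was called, and without KO 2 Ces1f and A530016L24Rik differed by −4.39 and −4.51. Inmt was called in 15, Ces1f in 7 and A530016L24Rik in 12 of the 16 fits. Ifi208, of the interferon-inducible p200 family, had −3.46 ± 0.80, and −2.30 without WT 13, where it was not called. Of the 8 largest falls, Ighd and Ccl21a were called in 16 of 16 fits that left out 1 library.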

How the data were processed

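Bulk RNA of 24 mammary tumours was sequenced after stranded mRNA library preparation, per the labels' protocols. The deposited files hold whole-number read counts per gene, made by the authors with featureCounts 2.0.0 on a RefSeq annotation of GRCm39, per the file headers. The recorded command has no strand setting, which leaves reads of a gene and its antisense neighbour together, and it skips reads that map to several positions. STAR and Subread stand in the submitters' processing notes. The versions of both are not given in the sources used. The authors' deposited KO against WT table was not used. A RefSeq table paired 44749 of 46318 gene IDs with a symbol.

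Library totals ran from 18789250 to 38022182 counts. A count of 3 corresponds to 0.0789 to 0.16 CPM, and such floors cover counting error only. The closest of 132 pairs of libraries within a label had a chi-square of 25.7 per degree of freedom, far outside sampling noise.

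For the 16 tier libraries, genes passing filterByExpr were fitted in R 4.3.3 with edgeR 4.0.16 (TMM scaling, quasi-likelihood test, two-sided, Benjamini-Hochberg over all tested genes, threshold 0.05), with the label as a block. CPM values were scaled by the file total, without TMM. List scores are mean centred log2 CPM (prior count 2). Single library measures were compared by exact permutation within labels. Named genes were Car9, Adm, Nr0b2, the 8 largest called rises and falls averaging 1 CPM or more, 5 further genes per direction by p-value, called hypoxia-response genes, a fixed panel of HIF-related genes, and up to 3 called members of every other list. Some items are not reported here. Members, lists and this rule were chosen with earlier results of these data known. Alternatives used limma 3.58.1 voom, DESeq2 1.42.0 and the settings in the closing section. The fit was tested on simulated data of 16627 genes for the high against low comparison, with 50 genes changed per fold size. It recovered 30% of the 1.5-fold changes, 64% of the 2-fold, 90% of the 4-fold and 98% of the 8-fold ones, made 4 false calls, and made 0 calls where nothing was changed. Each gene was drawn independently, without the shifts in cell content that many genes of a real library share. The simulated tiers were also not chosen by a gene. False calls from either source are therefore not covered.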

Additional observations from a re-analysis of the deposited data

Results flagged for a closer look

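In each tier of 8 libraries, the highest and lowest library of every named gene was compared with its nearest neighbour on the log2 scale (CPM plus 0.1). Of 172 pairs of gene and tier, 9 held a library far from the other 7. Chance alone flags about 1 group in 20, so this count is about what chance gives. Library WT 17 of the low tier stood far above the others of its tier for Pgam1 (61.3 CPM), Vegfa (131.3 CPM) and Mcm4 (78.6 CPM). Low-tier KO 11 stood high for Bnip3 (58.3 CPM) and Thy1 (88.9 CPM). High-tier KO 12 stood low for Epas1 (25.4 CPM) and high for Hilpda (32.6 CPM). Trib3 was low in low-tier WT 13 (13.6 CPM), and Ncmap was high in high-tier WT 22 (44.2 CPM).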

How the results depend on the processing

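The count of 984 calls moved with most choices. It was 637 without a filter, 2270 with DESeq2, 2015 with all 24 libraries in the fit, 1 with 3 libraries per tier and label, 379 with 6, 3394 with log2 Car9 CPM as a continuous term, 373 with tiers from TMM-scaled Car9, 494 with the luminal score as a covariate, 0 in KO libraries alone and 1 in WT libraries alone. With upper-quartile scaling, 327 of 906 calls were higher. Leaving out 1 library gave 126 to 1977 calls. The 22 hypoxia-response calls became 0 with 3 libraries per tier and label, 9 with 6, 35 with Car9 continuous, 7 with the luminal score, 0 within either label alone, and 4 to 29 without 1 library. RLE gave 980 and 22, and tiers by Adm 1048 and 31. Chosen after seeing the data, the T cell, adipocyte, fibroblast and cell division scores as covariates each gave 0 and 0, and leaving out KO 11 and KO 12 gave 166 and 9. The interaction count was 0 in every fit run, with other scalings, other filters or 1 library left out. Hypoxia-response genes called lower numbered 0 in the main fit, 2 with DESeq2 and 3 with Car9 continuous. They numbered 1 with upper-quartile scaling, with all 24 libraries, with tiers by Adm and without WT 22.

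Directions turned for few named genes: Csn1s1 with 6 libraries per tier and label (−0.39), Hif1a with 3 (−0.10), with Car9 continuous (−0.0703) and without 1 library (−0.0763 to 0.15), Slc16a3 and Ankrd37 with the cell division score (−0.10 and −0.51), Epas1 with the adipocyte, fibroblast and cell division scores (0.0151, 0.21 and 0.0853), and, with the adipocyte and the fibroblast score, Ndrg1 (−0.14 and −0.0674), Krt8 (−0.0722 and −0.20) and Krt18 (−0.20 and −0.36). The cause was not tested. Among called named genes, 1077 alternative values lost the call and 1671 kept it. No paired analysis was possible because the labels number libraries 1 to 12 in one genotype and 13 to 24 in the other, and no number is shared. Depth limits the lowest levels, since 3 reads are 0.0789 to 0.16 CPM, depending on the library.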
